A study of Drosophila melanogaster with 4 samples.

Results

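The annotation of the fly genome holds 290 tRNA genes on the 6 assembled chromosome arms, out of 18164 annotated genes, and their position relative to CG8924 binding peaks is described here. Members were all genes of the annotation class tRNA on these arms, and the 22 tRNA genes of the mitochondrial genome were left out. Binding was measured by chromatin immunoprecipitation and sequencing (ChIP-seq) with an antibody against GFP, in whole Drosophila melanogaster embryos aged 0 to 24 h, of mixed sex. The embryos came from a transgenic line that stably makes the CG8924 protein with GFP fused to its C terminus, so the signal is that of the tagged protein, averaged over all cells and ages in the collection. There were 4 biological replicates in 1 group, with no second genotype or treatment, and every peak list was called against a control that the deposited notes name only by its accession.

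Of the 290 tRNA genes, 30 (10.3%) had the summit of a peak in the authors' thresholded list within 500 bp, and 158 (54.5%) had the summit of a peak in the longer pooled list within that distance. The thresholded list holds 7842 peaks. It is named for the irreproducible discovery rate (IDR), a test of how well the ranks of peaks repeat between replicates. The pooled list holds 30000 peaks called on replicates 2, 3 and 4 together, down to a q-value of 0.370, and the thresholded peaks are its 7842 peaks of highest signal. Each replicate also has its own list of 30000 peaks. Signal is the authors' own height of a peak on the scale of its list, so peaks are compared between lists by rank. Read depth is not in the files and is unknown.

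tRNA genes are transcribed by RNA polymerase III. Their promoters lie inside the transcribed region, as an A box near the start and a B box near the end, which the factor TFIIIC binds before it brings in TFIIIB and the polymerase. They occur in many near-identical copies, alone or in clusters, and in several organisms tRNA loci also hold chromatin proteins and act as boundaries between domains. On the 6 arms the 290 genes had 95 distinct sequences, with up to 13 identical copies of one sequence. Reads from identical copies cannot be told apart inside the gene, only by flanking bases, and how the authors treated such reads is not given in the sources used here. The median length was 73 bp (71 to 186 bp), and 16 genes had an intron. A pattern for the A box was found in 286 of the 290 genes. The B box core TTCNANNC was found on the gene's strand in 271, and the 19 genes without it were 12 of the 17 alanine genes, all 6 initiator methionine genes and 1 threonine gene.

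A few genes beside thresholded peaks are shown 5′ to 3′ on the gene's own strand, from the RefSeq copy of the Release 6 (dm6) genome, with the A box and B box matches in capitals. They are shown because the box sequences lie inside the gene whereas nearly all summits lay outside it, and the last of them because it lacks the B box core. The tyrosine gene at chr3R:8669081-8669174 (minus strand) has an intron between its boxes. The glutamine gene at chrX:3427452-3427523 (minus strand) and the leucine gene at chr3R:24112964-24113047 (plus strand) have no identical copy elsewhere on the arms. The alanine gene at chr3R:17619738-17619810 (plus strand) has 11 identical copies, itself included, and no match to the B box core.
tRNA:Tyr-GTA-1-8: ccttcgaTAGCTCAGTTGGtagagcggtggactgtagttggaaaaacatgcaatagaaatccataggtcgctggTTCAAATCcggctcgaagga
tRNA:Gln-TTG-2-1: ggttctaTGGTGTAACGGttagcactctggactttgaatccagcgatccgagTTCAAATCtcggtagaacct
tRNA:Leu-TAA-2-1: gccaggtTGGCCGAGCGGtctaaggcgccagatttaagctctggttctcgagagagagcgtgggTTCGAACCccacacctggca
tRNA:Ala-AGC-2-2: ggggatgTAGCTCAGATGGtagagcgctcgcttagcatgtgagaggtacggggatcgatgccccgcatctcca

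The ground under the summits is shown next on the forward strand of the same build, with bases that belong to a tRNA gene in capitals. The windows at tRNA:Tyr-GTA-1-8 (chr3R:8669314-8669414) and tRNA:Gln-TTG-2-1 (chrX:3427709-3427809) are 101 bp centred on the summit and hold no tRNA base. The window at tRNA:Ser-AGA-2-4 (chr2L:3172966-3173066) is centred on the only thresholded summit that fell inside a tRNA gene. The last stretch (chr3R:17619961-17620216) runs through a cluster, with tRNA:Pro-TGG-1-2 at its left end, tRNA:Ala-AGC-2-3 on the opposite strand at its right end, and the summit at base 95, 23 bp beyond the proline gene.
Summit at tRNA:Tyr-GTA-1-8: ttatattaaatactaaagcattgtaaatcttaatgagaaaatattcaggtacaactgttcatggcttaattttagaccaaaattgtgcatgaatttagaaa
Summit at tRNA:Gln-TTG-2-1: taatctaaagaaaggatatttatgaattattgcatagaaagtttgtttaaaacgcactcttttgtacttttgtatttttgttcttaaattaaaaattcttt
Summit at tRNA:Ser-AGA-2-4: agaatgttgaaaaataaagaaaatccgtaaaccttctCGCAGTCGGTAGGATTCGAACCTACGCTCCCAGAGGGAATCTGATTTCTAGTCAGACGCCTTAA
Summit between tRNA:Pro-TGG-1-2 and tRNA:Ala-AGC-2-3: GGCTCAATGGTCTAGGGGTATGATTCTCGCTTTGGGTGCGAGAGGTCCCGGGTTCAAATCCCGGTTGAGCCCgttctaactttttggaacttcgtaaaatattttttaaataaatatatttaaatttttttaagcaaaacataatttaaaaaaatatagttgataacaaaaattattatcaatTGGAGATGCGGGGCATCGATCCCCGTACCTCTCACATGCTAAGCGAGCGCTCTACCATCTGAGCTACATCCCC

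The 30 tRNA genes with a thresholded summit lay in 20 loci, a locus being a run of tRNA genes at most 1000 bp apart (174 loci in all). Over all 18164 genes, 32.4% had a thresholded summit within 500 bp of the gene body, but most genes are far longer than a tRNA gene and reach more summits. Yardsticks of like size were therefore used. Of evenly spaced positions on the arms, each taken as an interval of the median tRNA length, 5.69% had a thresholded summit within 500 bp. Of the 269 snoRNA genes, which are also short and guide chemical changes to other RNAs, 24 (8.92%) had one. Counted from the 5′ end, 30 tRNA genes (10.3%) had a thresholded summit within 500 bp, against 29.0% of the 13945 protein-coding genes and 24.4% of all genes. At this threshold the tRNA share therefore lay near that of snoRNA genes and far under that of coding promoters.

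In all, 21 thresholded summits lay within 500 bp of a tRNA gene, 0.268% of the list. Their signals were spread over the list, with 5, 8, 3 and 5 of the 21 in 4 equal bands of the list from highest to lowest, and a median signal of 554 against 518 for all thresholded peaks. A protein-coding transcription start site (TSS) lay within 500 bp of 10 of the 21 summits (47.6%), against 50.1% of all thresholded summits. The other summits had none, and 19 tRNA genes (6.55%) had a thresholded summit of this kind, against 2.94% of arm positions.

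The strongest peak was at tRNA:Tyr-GTA-1-8, a tyrosine gene on arm 3R, where the summit at 8669364 ranked 117 of the pooled list with a signal of 3451. It ranked 164, 76, 190 and 116 in replicates 1 to 4, so every replicate placed it among its strongest peaks. The summit lay 190 bp from the tRNA gene and 254 bp from the TSS of CG8036, a transketolase gene. Next came tRNA:Gln-TTG-2-1 on X, at rank 689 with a signal of 1519, and ranks of 920, 440, 1157 and 448 in replicates 1 to 4. Here the nearest coding TSS, that of CG14269, lay 8048 bp from the summit and the tRNA gene 236 bp from it. The peak was thus the strongest at a tRNA gene with no coding TSS within 500 bp.

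Among the remaining 9 summits with a coding TSS in reach, that at tRNA:Trp-CCA-2-2 and tRNA:Gly-GCC-1-9 ranked 1074 and lay 16 bp from the TSS of CG30122. A second summit in the same peak interval ranked 4649. The summit at tRNA:Asp-GTC-1-4 and tRNA:Asp-GTC-1-5 ranked 1129 and lay 110 bp from a TSS of Sema1a, which encodes a transmembrane axon guidance protein. That at tRNA:Leu-TAA-2-1 ranked 1148, 383 bp from CG13605. At tRNA:Val-CAC-2-5 the summit ranked 2110 and lay 434 bp from Naam, a nicotinamidase gene, and 393 bp from the tRNA gene. At tRNA:Phe-GAA-1-2 it ranked 3816 and lay 16 bp from the TSS of RpL17, a protein of the large ribosomal subunit. The others were at tRNA:His-GTG-1-3 (rank 2714, CG8490 at 123 bp), tRNA:Gln-CTG-2-3 (rank 6578, CG4238 at 61 bp) and tRNA:Thr-AGT-1-4 (rank 7692, CG31279 at 335 bp). Of these 10 summits, 5 lay nearer to the coding TSS than to the tRNA gene. Whether a peak of this kind belongs to the tRNA gene or to the coding promoter cannot be told apart from its position.

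The 11 summits with no coding TSS within 500 bp served 19 tRNA genes, since 6 of them lay beside more than 1 tRNA gene. After tRNA:Gln-TTG-2-1 came tRNA:Glu-TTC-1-5 (rank 2691, 13238 bp from the nearest coding TSS), whose peak interval covered the gene's edge. tRNA:Arg-CCT-1-2 and tRNA:Arg-CCT-1-3 shared a summit of rank 2978, and tRNA:Ala-AGC-2-2, tRNA:Pro-TGG-1-2 and tRNA:Ala-AGC-2-3 shared one of rank 3352. tRNA:Leu-CAG-1-5 and tRNA:Leu-CAG-1-6 shared a summit of rank 3558, 2034 bp from a TSS of Sarm. The ranks at this leucine pair were 5524, 3622, 2623 and 3568 in replicates 1 to 4. tRNA:Ser-TGA-1-1 and tRNA:Ser-TGA-2-1 shared one of rank 3872. The summit inside tRNA:Ser-AGA-2-4 ranked 4655, and those at tRNA:Ala-TGC-2-1 and at tRNA:Ala-AGC-2-5 with tRNA:Pro-TGG-1-3 ranked 4961 and 6557. The initiator genes tRNA:iMet-CAT-1-1 and tRNA:iMet-CAT-1-2, whose tRNA starts every protein, shared a summit of rank 7459 with tRNA:Glu-TTC-1-4. The lowest was at tRNA:Lys-TTT-1-1, at rank 7812 with a signal of 297.

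**Figure D1:**
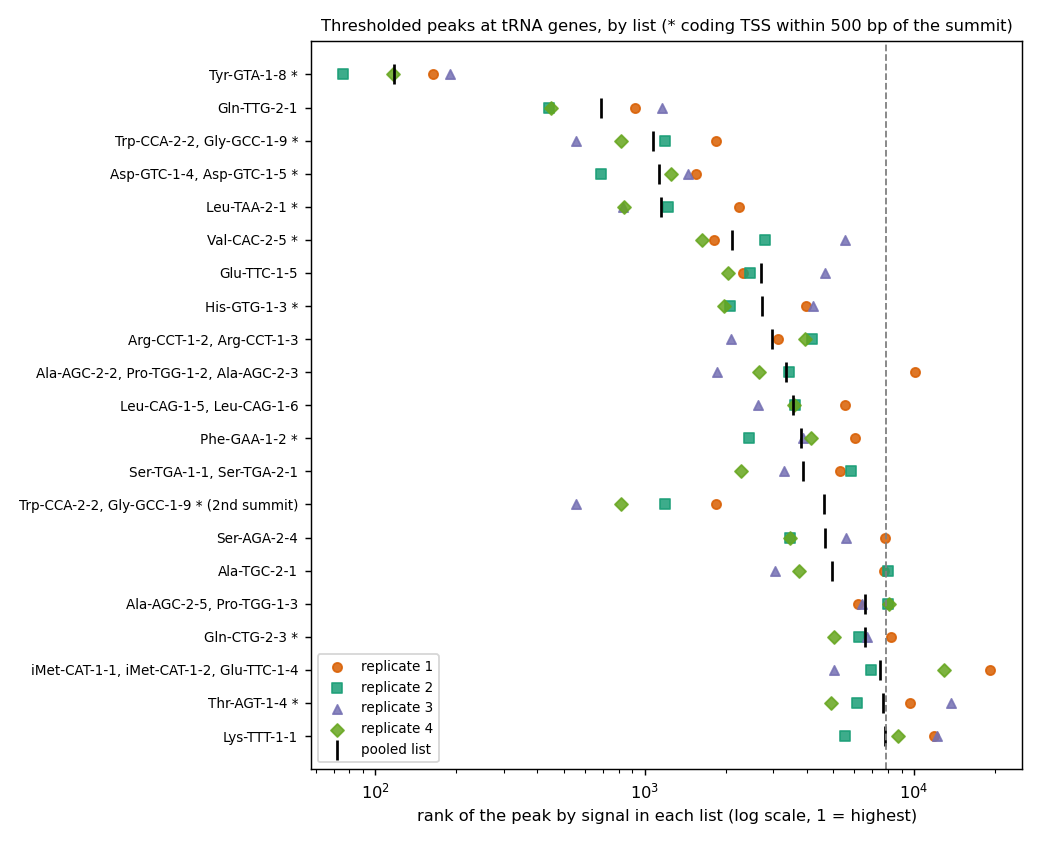
Rank by signal (log scale, 1 = highest) of each of the 21 thresholded peaks beside a tRNA gene, in the pooled list (black bars) and in each replicate (coloured points), with an asterisk where a coding TSS lay within 500 bp of the summit; the dashed line marks rank 7842. Points stay left of the line for the 9 highest peaks and cross it for several of those below, with replicate 1 at rank 19148 for the peak shared by the initiator methionine genes.

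Most of these peaks overlapped high peaks of each replicate. For replicates 2, 3 and 4 this was in part fixed in advance. The thresholded list was made from them and holds the 7842 pooled peaks of highest signal. A peak in it need not repeat in each replicate. A thresholded peak was taken as supported by a replicate where it overlapped at least 1 bp of that replicate's 7842 highest peaks. All 4 replicates supported 14 of the 21 peaks (66.7%), against 64.2% of all thresholded peaks, and these 14 served 18 tRNA genes. The summits ranked 1074 and 4649 at tRNA:Trp-CCA-2-2 and tRNA:Gly-GCC-1-9 share an interval. They were counted separately and have the same support by construction. Over all genes, 23.5% had a thresholded summit of such a peak within 500 bp. Replicate 1, which the pooled and thresholded lists did not use, supported 16 of the 21 (76.2%), against 85.9% of all thresholded peaks. Replicates 2, 3 and 4 supported 19 (90.5%), 19 (90.5%) and 18 (85.7%), near the 88.5%, 83.9% and 85.8% of all thresholded peaks. The weakest repeat was at tRNA:Lys-TTT-1-1, which only replicate 2 supported, at rank 5559, against ranks of 11816, 12166 and 8704 in replicates 1, 3 and 4.

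Counted in each replicate by itself, 23, 40, 37 and 39 tRNA genes in replicates 1 to 4 had a summit among the 7842 highest peaks within 500 bp, a mean share of 12.0% ± 2.74 (SD, n = 4). Over all genes the shares were 32.2%, 32.0%, 31.8% and 32.1% in the same order. Replicate 1 was thus low for tRNA genes and not for genes as a whole, and no cause was tested. Measured at 5′ ends, the share of tRNA genes was below that of protein-coding genes in 4 of 4 replicates, by a mean of 16.8 percentage points (SD 2.91, n = 4; the mean of tRNA minus protein-coding was -16.8). The exact two-sided sign-flip test over replicates, with 2 of 16 sign assignments as extreme, gave p = 0.13 after rounding, the smallest value that 4 replicates allow. Among the highest peaks the tRNA share was therefore the smaller one in every replicate, in a design that cannot pass 0.05.

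Below the threshold more tRNA genes had a summit. With the whole pooled list, 158 tRNA genes (54.5%) had a summit within 500 bp, in 89 of the 174 loci, against 18.6% of arm positions, 20.1% of snoRNA genes (54 of 269) and 51.6% of all genes. Of these, 128 had a pooled summit and no thresholded one, and 132 tRNA genes had no pooled summit. At 5′ ends the share was 52.8% for tRNA genes, 47.8% for protein-coding genes and 43.1% for all genes. Of the 32 snRNA genes, a class that includes RNAs of the splicing machinery and the 7SK genes, 20 (62.5%) had one. The 132 pooled summits beside tRNA genes had a median rank of 16236, and coding TSSs lay within 500 bp of 15.9% of them, against 30.2% of all pooled summits.

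The list was then cut into bands. By rank, 10.3% of tRNA genes had a summit among peaks 1 to 7842, 20.7% among peaks 7843 to 15000, 24.5% among peaks 15001 to 22500 and 12.1% among the rest. Arm positions had between 5.41% and 5.69% in each of these bands, and snoRNA genes 8.92%, 6.32%, 1.86% and 7.43%. The tRNA share was 4.32 times that of arm positions in the third band, against 1.82 times in the first. Peaks this far down the list have high q-values, and the pooled list has 17180 peaks with a q-value under 0.05. With those alone, 105 tRNA genes (36.2%) had a summit within 500 bp, against 11.5% of arm positions and 44.4% of all genes by gene body.

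**Figure D2:**
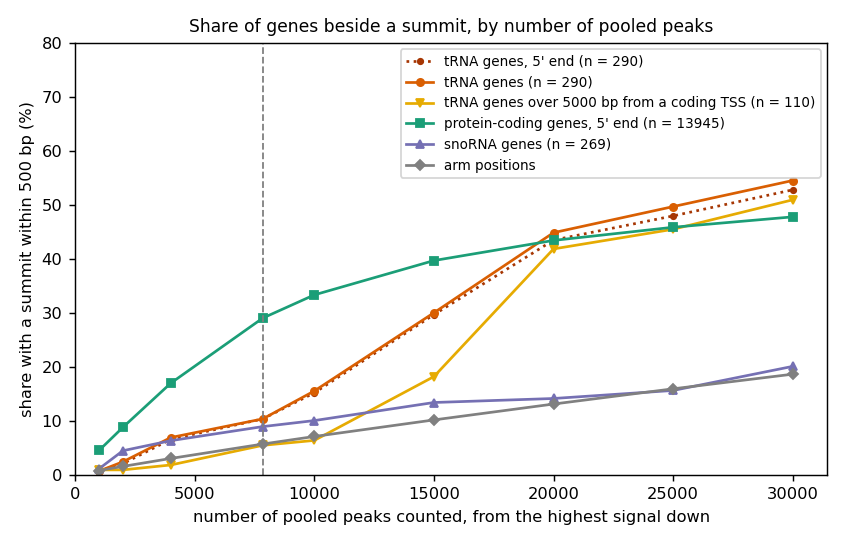
Share of genes or arm positions with a summit within 500 bp (vertical axis, %) against the number of pooled peaks counted from the highest signal down (horizontal axis), for all tRNA genes (by gene body, and dotted by 5′ end), tRNA genes over 5000 bp from a coding TSS, protein-coding 5′ ends, snoRNA genes and arm positions; the dashed line marks 7842 peaks. By gene body the tRNA line climbs to 30% at 15000 peaks and 44.8% at 20000, where arm positions stand at 13.1%; by 5′ end, tRNA genes and protein-coding genes both stand at 43.4% there.

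The replicates' whole lists gave 138, 167, 155 and 156 tRNA genes in replicates 1 to 4, a mean share of 53.1% ± 4.13 (SD, n = 4), against 53.7%, 54.6%, 53.0% and 53.8% of all genes. The mean was 21.3% ± 2.58 for snoRNA genes and 18.7% ± 0.556 for arm positions (SD, n = 4 each). The tRNA share exceeded that of snoRNA genes in 4 of 4 replicates, by 31.8 points on average (SD 4.59), and that of arm positions in 4 of 4, by 34.4 points (SD 3.63). Both gaps are larger than the spread between replicates, and the exact two-sided sign-flip test gave p = 0.13 for each, its smallest value, before and after Benjamini-Hochberg adjustment over 3 such comparisons (the last being that of genes far from coding promoters). Against protein-coding 5′ ends the difference was -3.71 points in replicate 1 and 5.84, 2.46 and 4.56 points in replicates 2, 3 and 4, with a mean of 2.29 (SD 4.23, n = 4, exact p = 0.375). That difference is smaller than its spread.

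A set of 94 tRNA genes (32.4%) had a summit within 500 bp in the whole lists of all 4 replicates, and 81 had one in none. In all 4 lists such a summit was found for 43.2% of all genes and 6793 of 13945 protein-coding genes (48.7%), by gene body, and so at a higher share than for tRNA genes. Among shorter genes it was found for 33 of 269 snoRNA genes (12.3%), 24 of 268 pseudogenes (8.96%), 12 of 32 snRNA genes (37.5%) and 10% of arm positions. Replicates share the control file and the genome's repeat structure, and the part of either in a summit common to all of them was not tested.

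Nearness to coding promoters was compared directly. Of the 32 tRNA genes within 500 bp of a coding TSS, 25 (78.1%) had a pooled summit and 10 (31.2%) a thresholded one, against 42.9% and 22.8% of arm positions at that distance. At the other end stood 110 tRNA genes more than 5000 bp from any coding TSS. Of these, 56 (50.9%) had a pooled summit, against 12.7% of such arm positions and 4 of 24 snoRNA genes (16.7%). Those 56 genes lay in 31 of the 64 loci of far genes, so they are not independent. The far share was 18.2% at 15000 pooled peaks and 41.8% at 20000, so much of it came from weak peaks. With pooled peaks of a q-value under 0.05, 34 of the 110 (30.9%) had a summit, against 6.57% of such arm positions. Only 6 of the 110 (5.45%), in 4 loci, had a thresholded summit, against 2.43% of arm positions. The far genes had 59, 58, 59 and 55 members with a summit in the whole lists of replicates 1 to 4, a mean of 52.5% ± 1.72, against 12.1% ± 0.137 of far arm positions (SD, n = 4 each). The difference was 40.4 points (SD 1.77, n = 4), in the same direction in 4 of 4 replicates, with an exact two-sided sign-flip p = 0.13, again the smallest possible. Replicate 1, lowest over all tRNA genes, was not low here.

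**Figure D3:**
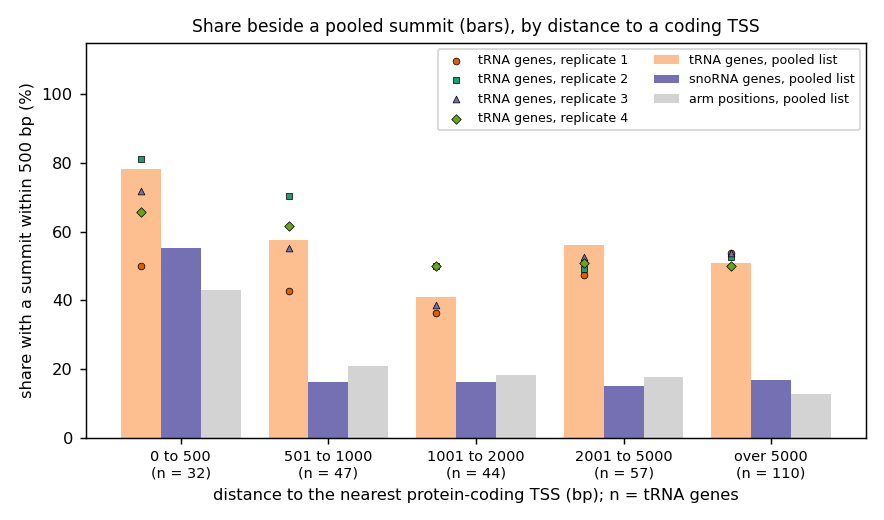
Share with a summit within 500 bp (vertical axis, %) in bins of distance to the nearest coding TSS (horizontal axis, bp), for tRNA genes, snoRNA genes and arm positions in the pooled list (bars) and for tRNA genes in each replicate's whole list (points). tRNA bars run from 40.9% to 78.1% and stand above those of snoRNA genes and arm positions in each of the 5 bins; the replicates spread from 50% to 81.2% in the nearest bin and from 50% to 53.6% in the farthest.

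In the pooled list, within 4000 bp, summit density was highest in the bins next to the tRNA 5′ end. It had 0.710 summits per gene and kb within 500 bp of tRNA 5′ ends, against 0.390 between 2000 and 4000 bp away, a ratio of 1.82. In replicates 1 to 4 the ratio was 1.78, 1.90, 1.70 and 1.78. The highest bin was 0 to 250 bp upstream in replicates 2, 3 and 4, at 0.952, 0.828 and 0.869. In replicate 1 it was instead 250 to 500 bp upstream, at 0.717. There the bins next to the 5′ end held 0.634 upstream and 0.455 downstream. For the 110 far genes the pooled ratio was 1.66. Their bin 1000 to 1250 bp upstream held 0.727, close to the 0.764 of each bin next to the 5′ end. For snoRNA genes the pooled ratio was 0.648. The snoRNA ratio averages 2 unlike sides. Between 2000 and 4000 bp the snoRNA bins held 0.416 to 0.625 summits per gene and kb upstream and 0.149 to 0.283 downstream, against 0.238 within 500 bp. In the thresholded list the ratio was 1.33 for all tRNA genes and 0.96 for the far ones, from few summits. Pooled summits lay on either side of the gene, with 103 pairs of summit and gene upstream, 94 downstream and 20 inside (9.22% of 217 pairs, where the gene makes up 7.06% of the window). A summit gives position only coarsely here, since most below-threshold intervals share the same width. Of the 111 beside tRNA genes, 109 (98.2%) had the list's most common width of 480 bp, against 96.0% of all below-threshold summits. Of the 21 thresholded ones, 11 (52.4%) did, against 32.5% of all thresholded summits.

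**Figure D4:**
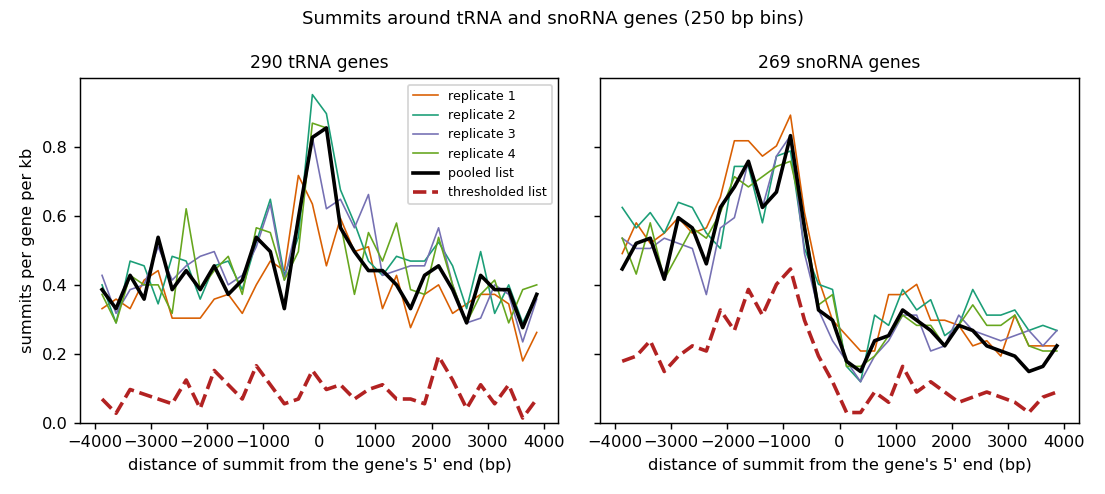
Summits per gene and kb (vertical axis) in 250 bp bins of distance from the gene's 5′ end (horizontal axis, bp, negative upstream), for tRNA genes on the left and snoRNA genes on the right, in the pooled and thresholded lists and each replicate's whole list. Within 500 bp of the 5′ end the pooled density was 0.710 at tRNA genes and 0.238 at snoRNA genes; the thresholded line at tRNA genes is nearly flat.

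Counts were then taken by family. Pooled summits were within 500 bp of 16 of 17 alanine genes, 8 of 10 asparagine genes, 15 of 19 glutamate genes, 15 of 20 serine genes and 12 of 17 threonine genes. At the low end were 5 of 20 glycine genes, 2 of 7 cysteine genes, 2 of 6 initiator methionine genes and 0 of 6 elongator methionine genes. The replicates' whole lists gave 13, 16, 14 and 14 alanine genes and 0, 1, 1 and 2 elongator methionine genes in replicates 1 to 4. Over all tRNA genes the pooled share was 54.5%, and the families named here were chosen for their distance from it in the pooled list, which replicates 2, 3 and 4 made up. Glycine genes varied more, at 5, 7, 11 and 5 of 20. Members of a family often share a locus and a peak, so the counts are not independent: the 16 alanine genes lay in 10 loci beside 14 distinct summits. Of the 12 alanine genes without the B box core, 11 had a pooled summit, and of the 6 initiator methionine genes without it, 2 did.

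**Figure D5:**
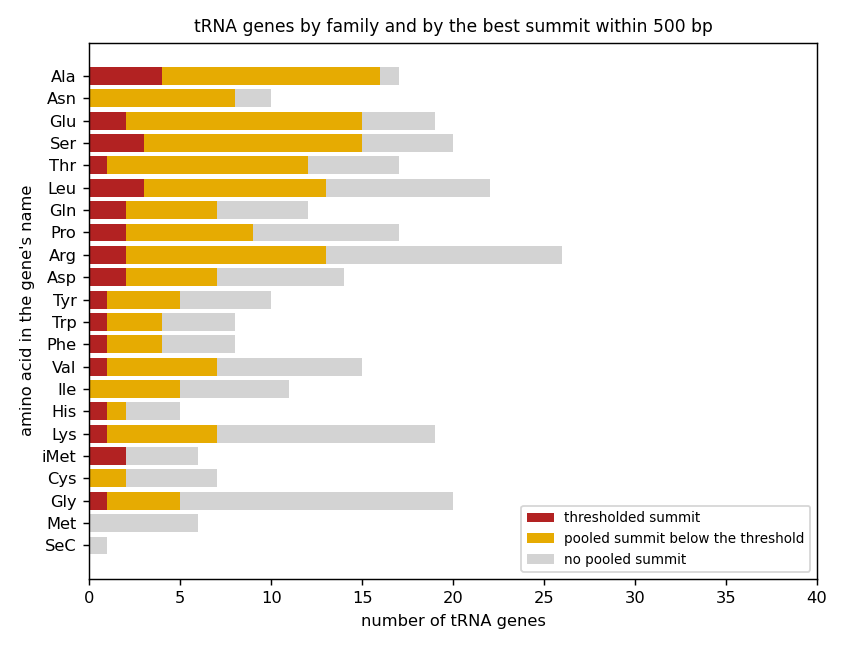
Number of tRNA genes (horizontal axis) per amino acid family (vertical axis, ordered by the share with a pooled summit), split by whether the gene had a thresholded summit, a pooled summit below the threshold, or none within 500 bp. Alanine stands at the top with 16 of 17 genes beside a pooled summit, 4 of them thresholded, and elongator methionine near the bottom with 0 of 6; SeC, the selenocysteine gene, is a single gene.

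Loci were also counted by size. A pooled summit was within 500 bp of 40 of 105 single-gene loci (38.1%), 40 of 59 loci of 2 or 3 genes (67.8%) and 9 of 10 larger loci. Larger loci span more bases, so more of the arm is in reach, and the part this plays in the higher counts was not tested. Thresholded summits were at 7, 12 and 1 of these loci. A cluster on 3R of tRNA:Asn-GTT-1-10 and 5 arginine genes (tRNA:Arg-ACG-1-6 to tRNA:Arg-ACG-1-10) had all 6 genes in reach of a pooled summit, the best at rank 15134, and 6, 5, 6 and 6 genes in replicates 1 to 4. It lay 13001 bp from the nearest coding TSS. A cluster of 7 arginine and serine genes on X had 3 genes in reach of 1 summit of rank 10516, and again 3 in each replicate. A cluster of 7 isoleucine and leucine genes within ATP8A on 2R had 3 pooled, with 3, 7, 4 and 4 in replicates 1 to 4. A cluster of 6 on 3L within Cht7, of cysteine and lysine genes, had 4 pooled, with 6, 6, 3 and 6 in the replicates. One of 5 within EcR, the ecdysone receptor gene, had 4 pooled, with 4, 4, 4 and 0 in the replicates. None of these 5 clusters had a thresholded summit.

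The tRNA genes with the strongest summits just under the threshold were tRNA:Ala-AGC-2-7 and tRNA:Ala-AGC-2-8, at rank 8375 with a signal of 279. The lowest above it were tRNA:Thr-AGT-1-4 and tRNA:Lys-TTT-1-1, at ranks 7692 and 7812 with signals of 301 and 297. At the alanine pair the ranks were 18809, 7239, 8601 and 4308 in replicates 1 to 4, so replicates 2 and 4 placed it inside their first 7842. Next came a summit within hts, inside tRNA:Val-AAC-2-1 and in reach of tRNA:Ser-CGA-1-4 and tRNA:Val-AAC-2-2 (rank 8529), then those at tRNA:Ile-AAT-1-9 (8717), tRNA:Arg-TCG-2-4 (8755), the pair tRNA:Asn-GTT-1-2 and tRNA:Asn-GTT-1-3 (8845) and tRNA:Ile-AAT-1-8 (8955). The summit at tRNA:Arg-TCG-2-4 lay 370 bp from a TSS of pyd, a cell junction gene, and the others had no coding TSS within 500 bp.

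Position and copy number were examined next. Of 134 tRNA genes inside a protein-coding gene, 76 (56.7%) had a pooled summit and 9 (6.72%) a thresholded one, and of the 156 outside, 82 (52.6%) and 21 (13.5%) did. Pooled summits were at 24 of 52 genes of unique sequence (46.2%), 55 of 103 with 2 to 5 identical copies (53.4%) and 79 of 135 with 6 or more (58.5%). Thresholded summits did not rise in this order, at 7 (13.5%), 9 (8.74%) and 14 (10.4%) of these genes. Of the 16 genes with an intron, 6 had a pooled summit and 1 a thresholded one. By arm the pooled share was 53.7% of 41 genes on 2L, 57.1% of 98 on 2R, 41.7% of 48 on 3L, 64.6% of 79 on 3R and 37.5% of 24 on X.

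The 101 bp around thresholded summits at tRNA genes had a median GC content of 32.7%, the same as all thresholded summits, where the arms as a whole have 42.2%. The 111 below-threshold summits at tRNA genes had a median of 36.6%, against 40.6% of all below-threshold summits. Short motifs were sought in the 50 bp to either side of each summit, in both orientations. GAGAG was found at 1 of the 21 thresholded tRNA summits (4.76%), against 11.3% of all thresholded summits, and at 12 of the 111 below the threshold (10.8%), against 13.5%. TATCGATA was at 1 of 21, against 2.03% of all thresholded summits, and ACACACAC at 1 of 21, against 2.55%. GTGTGACC was at 0 of 21, against 1.67%. Each of these counts among the 21 windows was 0 or 1.

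Genes whose products make and process tRNAs were examined as promoters, with a summit within 500 bp of any annotated TSS, beside 31.4% (thresholded) and 49.8% (pooled) of all protein-coding genes. Of 10 genes for RNA polymerase III subunits, 4 had a thresholded summit: Polr3E (rank 200), Polr3K (3836), Polr3F (5158) and Polr3C (6650). Polr3E ranked 139, 391, 161 and 245 in replicates 1 to 4. Of 8 genes for polymerase III factors, 5 did. These were Brf (rank 286) and Bdp1 (351), both subunits of TFIIIB, the TBP-related factor Trf (6928), Tbp itself (6302) and Pbp49 (2950), a subunit of the complex that binds snRNA promoters. Brf ranked 252, 431, 230 and 293, and Bdp1 ranked 214, 604, 371 and 577. The summits at Polr3E, Brf and Bdp1 were thus stronger than those at all tRNA genes but tRNA:Tyr-GTA-1-8, in signal of the same pooled list.

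Of 15 tRNA processing genes, 5 had a thresholded summit and 12 a pooled one. Archease (rank 1619) encodes a helper of the tRNA ligase, Tsen34 (2442) a subunit of the splicing endonuclease, Elp2 (6409) a part of the Elongator complex that modifies wobble bases, RNaseZ (3577) the enzyme that trims the 3′ end, and La (5235) a protein that binds new polymerase III transcripts. Of 9 other genes listed here under RNA polymerase III, snRNA:7SKa alone had a thresholded summit (rank 6415), and 5 had a pooled one. At snRNA:7SKa no summit was in reach in the whole lists of replicates 1 and 3. Which polymerase reads each listed gene was not tested. The 100 5S ribosomal RNA genes and pseudogenes, which use RNA polymerase III and stand in 1 tandem array on 2R, had 0 summits in either list and 1 gene in reach in replicate 1. How the authors treated reads from such repeats is not given in the sources used here, so an array with no summit cannot be told apart from one with no placed reads.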

How the data were processed

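The files are narrowPeak lists on dm6, 1 per replicate, 1 pooled and 1 thresholded, made by the authors. Replicates 2, 3 and 4 went into the pooled and the thresholded list, per the deposited notes, and every list used the same control. Fragments were 200 to 800 bp long, per the labels. No source used here names the aligner or the peak caller. The values used are the deposited signal of each peak, the deposited −log10 q-value, and the deposited summit offset from the peak's start. Nothing was rescaled.

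Genes came from Ensembl release 115 on the same assembly, whose arm lengths hold every peak, and sequences from RefSeq Release 6. Distances run from summit to gene body, or to the 5′ end where stated. A locus joins tRNA genes at most 1000 bp apart. Arm positions are evenly spaced intervals of the median tRNA length. Ranks are by signal within a list. Replicate differences were tested with exact two-sided sign flips. The functions were tested on simulated summits. Python 3.11.15, NumPy 2.4.6, pandas 2.3.3 and matplotlib 3.10.9 were used.

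The naming rule allowed 20 genes whose thresholded summit had no coding TSS within 500 bp, and all 19 such genes were named. It also took the 10 highest by signal with such a TSS and the 10 highest below the threshold. The 5 largest clusters, the nearest coding genes and the listed genes with a thresholded summit were named as well. A gene of the processing list is not reported here. tRNA:Thr-AGT-1-4 falls outside this rule and was named after its values were seen, as was the comparison of families. Members, lists and comparisons were chosen with earlier results of these data known. p-values measure the spread between biological replicates that share 1 transgenic line.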

Additional observations from a re-analysis of the deposited data

Results flagged for a closer look

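Of 47 values that were given for each of the 4 replicates, 3 had 1 replicate far from the others, by Dixon's test at its 95% critical value for 4 samples. Chance flags about 1 in 20 groups of continuous, normally spread values, a rate that does not hold for small counts with ties. The peak at tRNA:Glu-TTC-1-5 ranked 4651 in replicate 3, against 2318, 2459 and 2035 in replicates 1, 2 and 4. In the whole list of replicate 3, 1 tRNA-Cys gene had a summit within 500 bp, against 4 in each of replicates 1, 2 and 4. In the whole list of replicate 2, 10 tRNA-Ile genes had one, against 6 in each of replicates 1, 3 and 4. In these cysteine and isoleucine counts the other 3 replicates were equal, so the test would flag a gap of any size. Of the 11 isoleucine genes, 5 lie in a single cluster with 2 leucine genes, and all 7 genes of that cluster were in reach in replicate 2.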

How the results depend on the processing

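The number of tRNA genes with a thresholded summit was 30 within 500 bp, 14 within 200 bp and 53 within 1000 bp. It was 158 with the whole pooled list and, as an alternative chosen after seeing the data, 105 with pooled peaks of a q-value under 0.05; more peaks and wider windows reach more genes by construction. The number supported by all 4 replicates was 18, and 30 where support meant overlap with a replicate's whole list; leaving out each replicate in turn gave 18 to 22. The share of tRNA minus protein-coding genes at 5′ ends was -16.8 points, between -17.6 and -15.4 with each replicate left out, and reversed to 2.29 with whole lists; the cause was not tested. The other 19 alternative values kept their direction and lay within 1.5 times of the main count where they were counts. Read depth is unknown, no input or untagged values were analysed here, and the summits of most lower peaks are centres of intervals of 1 width.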
